A study of Mus musculus with 32 samples.

Results

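Gene expression was compared between day 7 and day 3 after tamoxifen in MEP, the sorted progenitors that give rise to megakaryocytes and red cells, across all genes of the count table. The libraries were chosen by their labels and not by their values: 3 MEP libraries of day 7 and 4 of day 3, out of 32 libraries in the series. The donor cells of every group carried Jak2V617F, a constitutively active form of the Janus kinase gene Jak2. That allele was switched on ex vivo with Dre mRNA, and the cells were then given to recipients that had been lethally irradiated. In the day 3 and day 7 groups tamoxifen activated a Cre recombinase, which removes Jak2V617F again. The labels give neither the promoter that drives Cre nor the age or strain of the mice, and no group received tamoxifen without a deletable allele. The effect of the deletion and that of tamoxifen itself, or of time since transplantation, cannot be told apart in this comparison. Vehicle libraries of batch A (3 MEP libraries labelled day 0, allele active) are given as reference values, and LSK cells of the same days (3 libraries at day 3 and 4 at day 7) served for comparison. LSK cells are the lineage-negative, Sca1 and Kit positive fraction that holds the stem cells. All of these libraries carry the batch label A, and no label says which mice share a litter or a sorting day. The vehicle MEP libraries of batch C, used to show how far counts differ between batches without treatment, carry the same description numbers as those of batch A, and whether they come from the same mice is not stated. These 3 libraries, and 3 MEP libraries of batch C labelled day 7 ruxolitinib, also entered the MEP fit. The fit of all 32 libraries further held the LSK libraries of batch C, of vehicle and ruxolitinib.

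JAK2 is the kinase behind the receptor for erythropoietin and those for other blood cell cytokines, and it signals mainly through the transcription factor STAT5. An MEP can move towards the red cell lineage, where KLF1 and GATA1 switch on globin, heme and membrane genes and cells divide rapidly. It can also move towards the megakaryocyte lineage, where FLI1 and platelet granule genes are used. Earlier stem and progenitor cells share several megakaryocyte genes with that second branch.

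Total counts, in units of 1000000, were 21 to 27.1 at day 3 and 11.2 to 20.1 at day 7, and the shallowest library was replicate 2 of day 7. The trimmed-mean (TMM) scaling factors were 0.95 to 1.27 at day 3 and 1.24 to 1.92 at day 7, again highest in that replicate. Odorant and pheromone receptor genes, which blood cells are not known to use, held 0.0378 to 0.084% of the counts at day 3 and 0.0842 to 0.194% at day 7. Their fitted log2 changes had a median of 0.72 over 655 tested genes, with 4 called higher and 1 lower, so a fitted rise of that size was common among genes with hardly any counts. Mitochondrially encoded genes held 0.774 to 1.03% of counts at day 3 and 1.12 to 1.34% at day 7. The MEP label fitted part of its markers: Gata1 lay at 331 to 779 CPM and Car1 at 4380 to 8090 CPM over the 7 libraries. The stem cell marker Ly6a lay at 0.187 to 1.33 CPM, and the granulocyte gene Elane at 0.504 to 1.87 CPM. Other markers of these classes read differently. The erythroid gene Klf1 lay at 16 to 22.3 CPM at day 7, and the stem cell marker Mllt3 at 61.8 to 119 CPM over both days. At day 7 the granulocyte gene Mpo reached 7.88 to 20.1 CPM and the cytotoxic cell gene Nkg7 42.5 to 93.2 CPM, both called higher. CPM are counts in every 1000000 counts of the TMM-scaled library size.

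Between day 3 and day 7 fewer genes rose than fell. Of 25274 genes tested, 1887 (7.47%) passed an adjusted p of 0.05, 263 of them higher at day 7 (1.04%) and 1624 lower (6.43%). Among the 8052 expressed genes, with a mean of at least 10 CPM over the MEP libraries, 108 were higher (1.34%) and 1499 lower (18.6%). Log2 changes had a median of 0.18 for the genes tested and of -0.33 for the expressed ones, so a typical expressed gene already sat below 0 with this scaling. The split moved with the scaling: with the expressed genes fitted alone their median was 0.02, and 683 were higher against 1384 lower. With an added offset for the GC content of each gene the split was 1024 to 1451, with upper quartile factors 557 to 1261, and with DESeq2 727 to 1856. The 263 rises numbered 151 without replicate 1 of day 3 and 160 without replicate 3 of day 7. For 1861 of the 1887 genes called, all libraries of a group lay on the same side of all libraries of the other. Over all genes tested such a complete separation was seen for 10.2% in the higher and 10.8% in the lower direction.

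Jak2 itself (chromosome 19, 29251828 to 29313080, mm10) did not pass the test. It lay at 20.3, 21.8, 14.2 and 13.9 CPM at day 3 and at 20.9, 11.8 and 25 CPM at day 7, and the groups overlap. The log2 change was 0.13 ± 0.28 (SE, adjusted p = 0.839), against 14.4 to 17.7 CPM in the vehicle libraries. Counts per gene do not separate the mutant from the normal transcript, so Jak2 does not check the deletion.

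Genes of megakaryocytes and platelets were prominent among the rises. Of 53 listed megakaryocyte and platelet genes tested, 24 (45.3%) rose and none fell, against 1.04% of all genes tested called higher. The median log2 change was 1.0, and 1.8 over the 22 that were expressed, of which 14 rose (63.6%, against 1.34% of expressed genes). With RLE or upper quartile factors, DESeq2 or voom 24 to 27 rose and none fell, and leaving out any 1 library left 21 to 23. With no count filter, the 7 tamoxifen MEP libraries alone or the 10 of batch A, 24, 27 and 25 rose and 1 fell in each. A replicate block in the 7 libraries gave 35 higher and 2 lower. With the expressed genes fitted alone 16 of 22 rose, and 17 of 22 with the GC offset. Plek, which encodes pleckstrin, the main protein kinase C substrate of platelets (chromosome 11, 16971206 to 17052381), read 1.02, 2.23, 1.75 and 0.862 CPM at day 3 and 20.3, 50.4 and 78.8 CPM at day 7. Its log2 change of 5.08 ± 0.66 (adjusted p = 3.78e-06) was the largest of the named rises. The vehicle libraries read 9.09, 1.3 and 0.899 CPM, so every day 7 library was also above every vehicle library. Pf4, the platelet granule chemokine, read 2.74, 6.1, 4.92 and 4.61 CPM at day 3 and 46.1, 112 and 92.4 CPM at day 7, a log2 change of 4.18 ± 0.59 (adjusted p = 1.05e-05). No day 7 library came near the day 3 range, whose top was 6.1 CPM.

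Surface and regulatory genes of the lineage rose as well. Itga2b, the CD41 integrin that marks megakaryocytes, read 18.6, 19.1, 16.8 and 15.6 CPM at day 3 and 82, 107 and 173 CPM at day 7, a log2 change of 2.78 ± 0.36 (adjusted p = 3.43e-06). The day 3 libraries agreed closely, and the lowest day 7 library lay above all of them and above the vehicle libraries (8.91 to 26.3 CPM). Sdpr, also named Cavin2 and part of the caveolar coat, rose by 3.74 ± 0.43 on the log2 scale, from 0.704 to 1.41 CPM at day 3 to 10.9 to 15.9 CPM at day 7. Vwf, Fli1, Ppbp and Gp9 are markers or list members that were picked out after their values were seen. Vwf, von Willebrand factor, rose from 35.9 to 44.2 CPM to 80.8 to 85.4 CPM (log2 change 1.0 ± 0.24). Fli1, the ETS family transcription factor of the megakaryocyte branch, went from 3.25 to 5.47 CPM to 27.6 to 41.7 CPM (log2 change 2.94 ± 0.52). The late glycoprotein gene Gp9 did not pass the test (0.83 ± 0.34, adjusted p = 0.181), though it did with the expressed genes fitted alone (adjusted p = 0.0225). Gp1bb lay at 0.036 to 0.234 CPM over both days. Neither platelet glycoprotein gene was therefore called in the main fit, Gp1bb because it had too few counts to be tested.

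**Figure D1:**
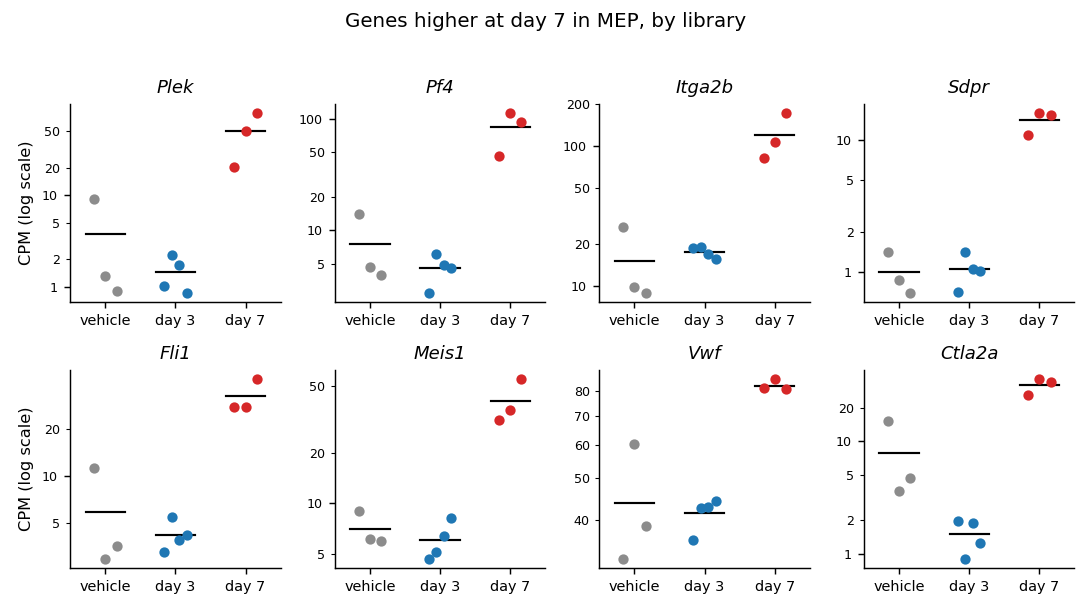
CPM on a log axis of 8 genes called higher at day 7, in each MEP library of vehicle (batch A, 3 libraries), day 3 (4) and day 7 (3); points are libraries and bars are group means. All day 7 points lie above all day 3 points in each panel, and for Plek they run from 20.3 to 78.8 CPM against 0.862 to 2.23 CPM at day 3.

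The platelet chemokine genes Pf4 and Ppbp are neighbours on chromosome 5 and moved together, so the 250 bases upstream of each RefSeq start (GRCm38.p6) are shown. Ppbp lay at 0.0391 to 0.291 CPM at day 3 and 1.48 to 4.08 CPM at day 7, a log2 change of 3.57 ± 0.72 (adjusted p = 0.00111). Both windows are on the plus strand, chr5:90772185-90772434 and chr5:90768268-90768517. Capitals mark a match on either strand to GGAAGT, a form of the ETS motif, which reads ACTTCC here.
Pf4: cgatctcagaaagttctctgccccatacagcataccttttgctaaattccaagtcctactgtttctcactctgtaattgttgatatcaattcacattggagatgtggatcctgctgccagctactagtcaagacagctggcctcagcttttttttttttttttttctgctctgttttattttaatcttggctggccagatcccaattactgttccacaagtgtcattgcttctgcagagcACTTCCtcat
Ppbp: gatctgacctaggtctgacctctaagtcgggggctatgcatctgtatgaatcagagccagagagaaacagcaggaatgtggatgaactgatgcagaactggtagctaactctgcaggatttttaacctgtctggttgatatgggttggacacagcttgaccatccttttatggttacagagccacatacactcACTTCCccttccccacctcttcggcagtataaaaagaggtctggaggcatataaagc
Each window held 1 match. Over the megakaryocyte and platelet list 12 of 45 such windows (26.7%) held GGAAGT, against 19.7% of all 32851 windows. A match is a string of letters and not a measured binding site.

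Genes shared with stem cells rose in part. Of 46 listed stem cell genes tested, 8 rose (17.4%, against 1.04% of genes tested) and 2 fell (median log2 change 0.53). Meis1, a homeobox factor of stem cells and megakaryocytes, read 4.65, 5.08, 6.38 and 8.13 CPM at day 3 and 31.5, 36.2 and 55.2 CPM at day 7, with no overlap (log2 change 2.76 ± 0.37, adjusted p = 5.14e-06). Angpt1, a ligand of the receptor TIE2, went from 5.73 to 8.72 CPM to 32.4 to 60.7 CPM, and the receptor gene itself, Tek, from 1.64 to 4.91 CPM to 12.5 to 18.2 CPM. Txnip, a thioredoxin inhibitor, rose by 1.67 ± 0.32 on the log2 scale, from 59.7 to 96.8 CPM to 164 to 350 CPM. Eng, a TGF-beta co-receptor, fell (log2 change -2.90 ± 0.26), from 197 to 293 CPM to 25.4 to 40.2 CPM. The stem cell markers Ly6a, Procr, Hlf, Mecom, Mllt3 and Flt3 were all without a call. Ly6a read 0.187 to 0.474 CPM at day 3 and 0.514 to 1.33 CPM at day 7, without overlap. Mecom read 5.79 to 8.01 CPM and 9.07 to 10.5 CPM, also without overlap. For Procr, Hlf and Flt3 the groups overlapped, with higher medians at day 7. Mllt3 overlapped as well, at 61.8 to 82.4 CPM at day 7 against 68 to 119 CPM at day 3. Kit, the receptor on the sorted cells, read 532 to 765 CPM and 650 to 1170 CPM, and the groups overlap (log2 change 0.43 ± 0.31, adjusted p = 0.511).

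The other large rises had varied functions. Ctla2a, a cysteine protease inhibitor, read 1.96, 0.899, 1.86 and 1.24 CPM at day 3 and 26.1, 35.8 and 33.6 CPM at day 7 (log2 change 4.41 ± 0.46, adjusted p = 1.11e-07). Its day 7 values lay above the vehicle libraries too, which read 3.63 to 15.1 CPM. Serpina3g, a serine protease inhibitor of a near-identical gene family whose reads may be shared, rose by 3.38 ± 0.50 on the log2 scale. Tuba8, an alpha tubulin, rose by 3.71 ± 0.58, Fut7, a fucosyltransferase for selectin ligands, by 3.98 ± 0.63, and Fxyd5, an ion pump regulator, by 3.41 ± 0.49. Cd74, the chaperone of MHC class II, rose by 4.24 ± 0.58, from 0.262 to 1.53 CPM to 12.4 to 28.7 CPM, and H2-Aa and H2-Ob of the same pathway by 3.14 ± 0.49 and 3.34 ± 0.48. Of 11 MHC class II genes tested 4 rose (36.4%, against 1.04% of all genes tested), and neither of the 2 expressed members did. The call of H2-Oa was lost without replicate 3 of day 7 (adjusted p = 0.091). Cd74 counts in the B and plasma cell list too. Nkg7, a granule gene of cytotoxic cells, read 3.28 to 9.14 CPM at day 3 and 42.5 to 93.2 CPM at day 7 (log2 change 3.34 ± 0.62).

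Marker lists of most other blood cells held rises and no called falls, while in the macrophage list 1 of 26 genes rose (Lgals3) and 1 fell (log2 change -3.35). In the granulocyte and monocyte list 12 of 42 genes rose (median 0.98), in the mast cell and basophil list 4 of 18 (0.89), in the B and plasma cell list 4 of 32 (0.61) and in the T and NK cell list 3 of 30 (0.85), against 1.04% of all genes tested. Those medians sit close to the 0.72 of the odorant and pheromone receptors. The summed level of the granulocyte and monocyte list was 135 to 209 CPM at day 3 and 424 to 626 CPM at day 7, and that of the B and plasma cell list 121 to 158 CPM and 198 to 222 CPM. The summed level of the macrophage list was 1110 to 1490 CPM at day 3 and 683 to 1080 CPM at day 7. Its median log2 change was 0.53 over the 26 genes, and -0.49 over the 5 expressed members, of which Apoe was called lower. The macrophage markers Emr1, C1qa, C1qb, C1qc, Cd5l and Vcam1 lay at 0.109 to 5.96 CPM. They overlapped between the days, with higher medians at day 7 and no call. Lyz2, lysozyme, read 2.7 to 5.82 CPM at day 3 and 22.8 to 28.8 CPM at day 7 (log2 change 2.56 ± 0.39). S100a8, a neutrophil gene, went from 0.391 to 3.53 CPM to 8.92 to 17 CPM, while Elane stayed without a call. Igkc, the immunoglobulin kappa constant gene, went from 0.391 to 7.91 CPM to 13.4 to 38.5 CPM, and Igj, also named Jchain, from 0.196 to 1.71 CPM to 3.65 to 7.99 CPM. The defining B cell gene Cd79a lay at 0.508 to 1.54 CPM over both days and was not called. Cd79b read 0.665 to 2.58 CPM at day 3 and 3.27 to 5.28 CPM at day 7, without overlap and without a call. Ighm did likewise, at 0 to 3.35 CPM and 3.79 to 12.1 CPM. Of the T cell genes, Cd3e read 0.626 to 1.61 CPM and 1.95 to 2.12 CPM, without overlap, and Cd3d 0.274 to 0.729 CPM and 0.665 to 1.92 CPM, with overlap. Neither was called. Slc18a2, an amine transporter of mast cells and platelets, rose from 18.9 to 20 CPM to 54.5 to 88.7 CPM (log2 change 1.76 ± 0.27). The part of admixed cells in these rises was not tested, and in sorted bulk cells a change in the mix of cells and a change within each cell cannot be told apart. Leaving out replicate 1 of day 3 brought the granulocyte and monocyte count from 12 to 7.

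**Figure D2:**
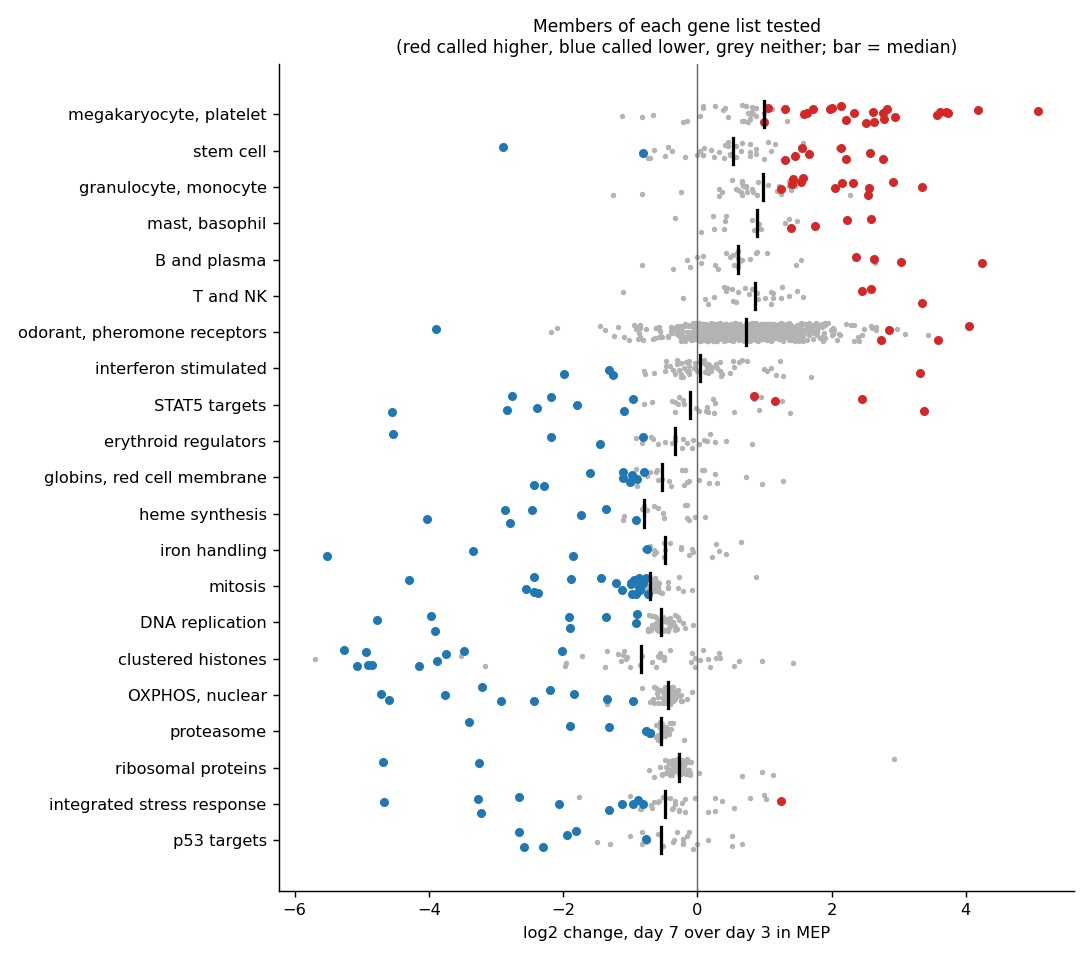
Log2 change at day 7 over day 3 of each tested member of 21 gene lists, with the list median as a bar; red and blue points passed the test and grey points did not. The megakaryocyte list lies to the right (median 1.0, 24 called higher) and mitosis to the left (median -0.70, 22 called lower), while the odorant and pheromone receptors centre on 0.72.

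Among erythroid regulators 4 of 25 fell and none rose, and the 17.4% lower among the 23 expressed ones is near the 18.6% of all expressed genes. Klf1, the master activator of red cell genes (chromosome 8, 84901928 to 84905291), read 139, 734, 354 and 607 CPM at day 3 and 21.1, 16 and 22.3 CPM at day 7. No libraries overlap, the day 7 libraries agree closely and the day 3 libraries spread widely. The log2 change was -4.53 ± 0.60 (adjusted p = 4.42e-06). Vehicle libraries of batch A read only 27.9, 119 and 55.2 CPM, and between vehicle batches C and A Klf1 differed by 2.91 on the log2 scale with no treatment. Epor, the erythropoietin receptor, read 452, 357, 405 and 297 CPM at day 3 and 122, 26.1 and 102 CPM at day 7 (log2 change -2.18 ± 0.35, adjusted p = 6.45e-05). Its vehicle libraries lay at 262 to 357 CPM, close to day 3, and the vehicle batches differed by 0.32. E2f4 (-1.45) and Bcl11a (-0.81) fell as well. The Bcl11a call was lost without replicate 2 of day 7, among other omissions (adjusted p = 0.331). Gata1, the founding factor of the lineage, read 486 to 779 CPM at day 3 and 331 to 637 CPM at day 7, and the groups overlap (-0.33 ± 0.25, adjusted p = 0.544). With the expressed genes fitted alone its change was 0.01, and the median of the list turned from -0.33 to 0.01.

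Some of the genes that build the red cell fell too. Of 35 tested globin and red cell membrane genes 9 fell (median -0.52), all of them among the 30 expressed members (30.0%, against 18.6% of expressed genes), and without replicate 2 of day 7 only 3 did. Rhag, the Rh-associated glycoprotein, read 693, 462, 516 and 381 CPM at day 3 and 298, 184 and 231 CPM at day 7 (log2 change -1.11 ± 0.24, adjusted p = 0.00226), below the vehicle libraries at 721 to 992 CPM. Spnb1, the older name of beta spectrin Sptb, fell (log2 change -2.29), as did Trim58, a ubiquitin ligase of maturing red cells (-2.44). Car1, the abundant carbonic anhydrase of the progenitors, was not called.

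In heme synthesis 7 of 23 genes fell and none rose (median -0.80), all 7 among the 21 expressed members (33.3%, against 18.6%). With the expressed genes fitted alone the median was -0.44, and with the GC offset -0.22, with 7 lower in each. Fech, ferrochelatase, which inserts iron into the porphyrin ring, read 115, 134, 115 and 99.2 CPM at day 3 and 19.4, 18.2 and 25.4 CPM at day 7 (log2 change -2.47 ± 0.30, adjusted p = 1.49e-06). Its day 7 libraries lay below the vehicle libraries as well (52.1 to 97.1 CPM). The heme transporter Slc48a1 fell (-2.86), as did Clpx, a mitochondrial chaperone that acts on the first enzyme of heme synthesis (-2.79), and 2010011I20Rik, now Fam210b (-4.03). In iron handling 4 of 24 genes fell, 22.2% of the 18 expressed members and so near the 18.6% of all expressed genes. Fth1, the ferritin heavy chain (chromosome 19, 9980598 to 9985098), read 3100, 2220, 2350 and 1750 CPM at day 3 and 59.4, 35.2 and 59.2 CPM at day 7, a log2 change of -5.52 ± 0.39 (adjusted p = 5.16e-10). The partner chain gene Ftl1 read 867 to 1440 CPM and 538 to 854 CPM and was not called (-0.65 ± 0.27, adjusted p = 0.191). Fth1 has near-identical copies in the genome, so its count depends on how the authors treated reads with several matches. Tfrc, the transferrin receptor, read 351 to 710 CPM at day 3 and 220 to 328 CPM at day 7 (-0.79 ± 0.27, adjusted p = 0.0827), after 2100 to 3150 CPM in the vehicle libraries. Its day 3 and day 7 libraries did not overlap. Tfrc was called lower with the 7 tamoxifen libraries alone (adjusted p = 0.0368), the 10 of batch A (0.0455) and the GC offset (0.0122), among other alternatives. It was not called with RLE factors (0.118) or DESeq2 (0.0907).

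**Figure D3:**
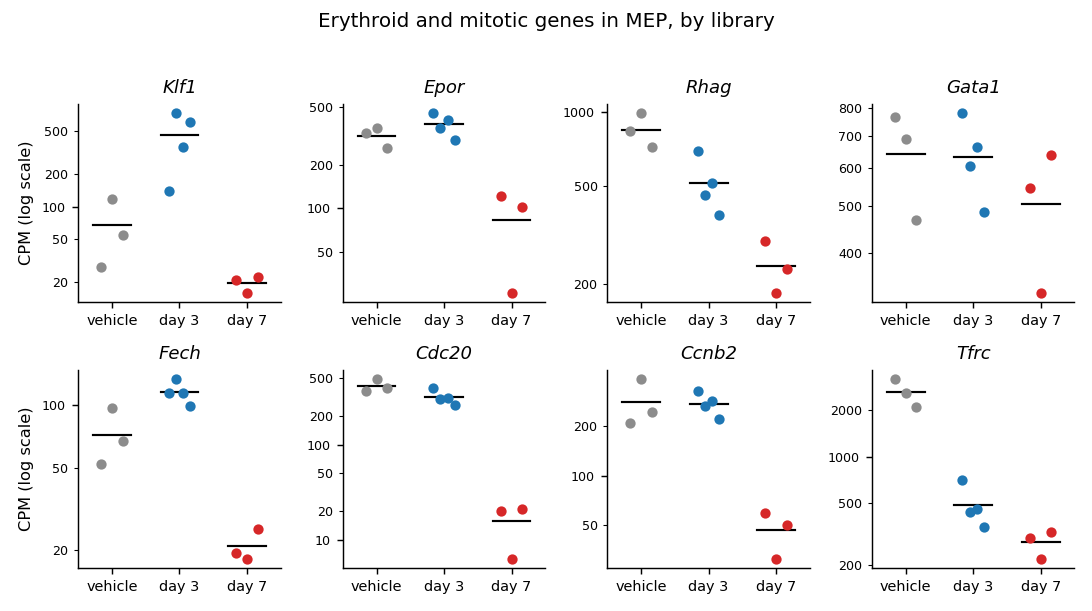
CPM on a log axis of 5 erythroid genes, Tfrc and 2 mitotic genes in each MEP library of vehicle (batch A), day 3 and day 7; points are libraries and bars are group means. Klf1, Epor, Rhag, Fech, Cdc20, Ccnb2 and Tfrc (the last without a call) separate day 7 from day 3. Gata1 overlaps, and replicate 2 of day 7 is the lowest point for Epor (26.1 CPM).

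Many cell division genes fell, a few of them strongly. Of 55 mitosis genes, all expressed, 22 fell and none rose (against 18.6% of expressed genes called lower, median -0.70 against -0.33). For 47 every day 7 library lay below every day 3 library, against 10.8% of all genes tested. That share was not computed for expressed genes, which leaned lower in general. The count of mitosis genes called moved with single libraries. Without replicate 2 of day 7, the shallowest, it was 7, with a median of -0.52, and without replicate 3 of day 3 it was 13. With the expressed genes fitted alone 24 fell, 1 rose and the median was -0.34. Cdc20, the activator of the anaphase-promoting complex, read 392, 301, 306 and 260 CPM at day 3 and 20.2, 6.4 and 21.2 CPM at day 7, far outside the day 3 and vehicle ranges (vehicle 365 to 484 CPM). Its log2 change was -4.30 ± 0.35 (adjusted p = 2.35e-09). Ccnb2, cyclin B2, read 329, 267, 288 and 221 CPM and then 59.2, 30.9 and 49.8 CPM (-2.56 ± 0.28, adjusted p = 2.14e-07). Cenpa, the centromere histone (-2.38), the condensin subunit Smc4 (-1.88) and Racgap1, which directs cytokinesis (-2.43), fell too.

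Promoters of G2 and M phase genes are known for CCAAT boxes, bound by NF-Y, and the 250 bases upstream of the RefSeq starts of the 2 genes named first are shown, both on the minus strand and written 5′ to 3′ along the gene. Ccnb2 is at chr9:70421555-70421804 and Cdc20 at chr4:118437344-118437593 (GRCm38.p6), and capitals mark CCAAT on either strand.
Ccnb2: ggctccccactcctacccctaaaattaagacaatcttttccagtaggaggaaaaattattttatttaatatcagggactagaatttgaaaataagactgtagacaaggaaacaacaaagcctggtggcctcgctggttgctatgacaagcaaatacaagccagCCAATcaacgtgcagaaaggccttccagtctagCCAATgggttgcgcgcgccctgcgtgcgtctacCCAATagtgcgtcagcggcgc
Cdc20: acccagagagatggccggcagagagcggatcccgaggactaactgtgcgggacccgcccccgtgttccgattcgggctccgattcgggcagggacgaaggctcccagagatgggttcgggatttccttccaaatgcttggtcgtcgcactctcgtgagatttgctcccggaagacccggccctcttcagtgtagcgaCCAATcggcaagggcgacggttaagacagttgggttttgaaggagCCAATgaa
Ccnb2 held 3 matches and Cdc20 held 2. Over the mitosis list 39 of 50 windows (78.0%) held at least 1 CCAAT and 50% held at least 2, against 33.8% and 10.1% of all windows. The motifs CCAAT and GGAAGT were searched separately, and matches to them can share end bases. The share belongs to the list as written and not to the genes that fell.

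In DNA replication 8 of 52 genes fell and none rose (median -0.54), and 5 fell without replicate 2 of day 7. The share, 15.7% of the 51 expressed members, lies below the 18.6% of all expressed genes. Mcm6, a subunit of the replicative helicase, read 428, 1300, 730 and 948 CPM at day 3 and 56.9, 40.2 and 66.1 CPM at day 7 (-3.97 ± 0.48, adjusted p = 1.13e-06). Rfc5 of the clamp loader (-4.78), Dut, which removes dUTP (-3.91), Gins4 of the helicase (-1.91) and the ribonucleotide reductase subunit Rrm2 (-1.36) also fell. For Mcm6, Rfc5 and Dut the vehicle batches C and A differed by 2.0 to 2.12 on the log2 scale, while for Gins4 and Rrm2 they differed by 0.57 and 0.41. Of 52 tested clustered histone genes, most of them at very low counts, 10 fell (19.2%, against 6.43% of genes tested). The linker histone Hist1h1c went from 22.6 to 31.6 CPM to 1.5 to 2.27 CPM (-3.74 ± 0.33). Histone genes are near-identical and their reads may be shared.

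The 12 largest falls were genes of varied function, with Fth1 among them. Pfn1, profilin of the actin cytoskeleton, read 239, 1100, 538 and 864 CPM at day 3 and 11.4, 7.2 and 15.8 CPM at day 7 (-5.90 ± 0.62, adjusted p = 1.18e-07). Log2 changes were -5.09 for Phb2, a mitochondrial prohibitin, -4.93 for Bsg, basigin, -4.93 for the peptidase Thop1, -4.90 for Spr of tetrahydrobiopterin synthesis, -4.87 for the splicing factor Lsm4 and -4.80 for Vars, the valyl tRNA synthetase. They were -4.81 for the early response gene Junb, -4.85 for the histone variant H2afx and -4.91 for the linker histone Hist1h1e. H2afx read 4.81, 144, 13.8 and 38.5 CPM at day 3 and 1.33 to 2.08 CPM at day 7. Its change was -3.45 without replicate 2 of day 3, and limma voom did not call it (adjusted p = 0.086). Mrps34, a mitochondrial ribosome subunit, read 0.235, 7.31, 1.35 and 2.44 CPM at day 3 and had no count in the 3 day 7 libraries, which makes it at least 67-fold lower against a floor of 3 counts over the group, and at least 32-fold lower without replicate 2 of day 3. Its vehicle libraries of batch A read only 0.0459 to 0.355 CPM, and the vehicle batches differed by 4.01 on the log2 scale.

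Within complexes whose subunits assemble in a fixed ratio, a few subunits fell far while most members lay near the list's median. The shares called lower were 2.47% of expressed ribosomal protein, 14.3% of oxidative phosphorylation and 15.8% of proteasome genes, all below the 18.6% of all expressed genes. Of 86 cytosolic ribosomal protein genes 2 fell: Rpl13, from 1090 to 1390 CPM to 34.7 to 61.5 CPM (-4.68 ± 0.38), and Rps2, from 546 to 2510 CPM to 127 to 170 CPM (-3.25 ± 0.44). Abundant members near the list median were Rplp0 at -0.43 ± 0.26 and Rpl4 at -0.42 ± 0.24, neither of them called, and that median was -0.28 (0.08 with the expressed genes fitted alone). Rpl13 and Rps2 have processed copies, so reads may be shared. Of 70 nuclear genes of oxidative phosphorylation 10 fell (median -0.44), with the smallest p-values at 2 subunits of ATP synthase: Atp5d read 322 to 472 CPM and then 10.5 to 24 CPM (-4.60 ± 0.33), and Atp5b 3140 to 4410 CPM and then 143 to 382 CPM (-3.76 ± 0.32). Ndufa10 (-2.92), Cox8a (-2.43) and Cox5b (-2.19) fell as well. Of 38 proteasome genes 6 fell (median -0.54), among them Psmd3 (-3.40 ± 0.63, and -2.76 without replicate 2 of day 3), Psmd8 (-1.90 ± 0.24) and Psmb4 (-1.31 ± 0.25). Psmc2 (-0.76) and Psmb7 (-0.70) lost their calls without replicate 2 of day 7 (adjusted p = 0.305 and 0.253), and leaving out any library gave 3 to 7 proteasome calls.

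**Figure D4:**
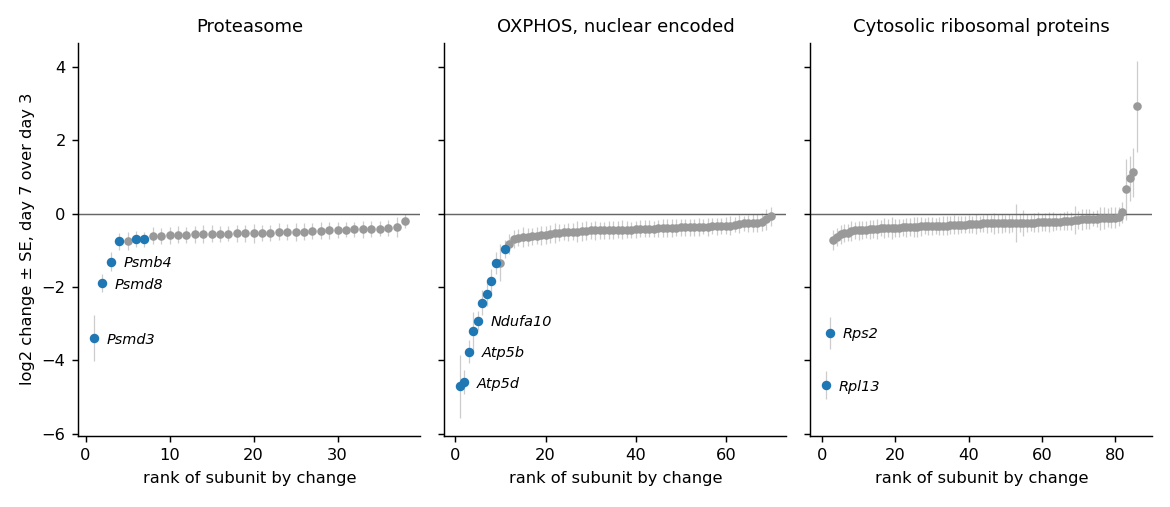
Log2 change with SE at day 7 over day 3 of each subunit gene, ranked, for the proteasome (38 genes), nuclear-encoded oxidative phosphorylation (70) and cytosolic ribosomal proteins (86); blue points passed the test. Most subunits form a flat line just below 0, and the named ones (Rpl13 at -4.68, Atp5d at -4.60, Psmd3 at -3.40) lie far under it.

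Several measured properties moved with the size of the fall. Over the 64 expressed genes that fell by more than 4 on the log2 scale, the median difference between vehicle batches C and A was 1.09, and over the 5121 genes between -1 and 0 it was 0.32. Of expressed genes 11.2% were called lower where the vehicle batches differed, in either direction, by under 0.5, 29.6% where they differed by 0.5 to 1 and 51.7% where they differed by over 1. By GC content the share called lower went from 8.09% of genes at 40% GC or below to 44.4% of those above 60%. The median transcript length was 1822 bases below -4, 3130 bases between -2 and -1 and 2986 bases between -1 and 0. Short length was not limited to the falls: the median was 4127 bases between 0 and 1 and 2136 bases above 2. Overlap with another protein-coding gene was 28.1% below -4, 18.8% between -4 and -3 and 27.6% between -1 and 0. It was 22.6% between 0 and 1, 17.6% between 1 and 2 and 25.0% above 2. The median change in LSK cells over the same days was -1.90 for the genes below -4 and 0.20 for those between -1 and 0. The part of RNA quality or library preparation in the falls was not tested. Fth1, Cdc20, Epor, Atp5d and Thop1 had vehicle batch differences of 0.32 to 0.64, and Klf1, Pfn1, Psmd3 and H2afx of 2.91 to 3.63.

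Stress and growth lists held more falls than rises, as did expressed genes in general (18.6% lower, 1.34% higher). In the integrated stress response 10 of 42 genes fell and 1 rose (median -0.48, 34.5% of the 29 expressed members lower), and 6 fell without replicate 2 of day 7. Eif4ebp1, an inhibitor of cap-dependent translation, had a log2 change of -4.67 and the amino acid transporter chain Slc3a2 of -3.22, the latter from 156 to 206 CPM to 14.9 to 24.1 CPM. Sesn2, a stress sensor that also belongs to the p53 list, read 66.9, 66.7, 78.7 and 55.4 CPM and then 10.8, 10.4 and 10.8 CPM (-2.65 ± 0.43). Of 30 p53 targets 6 fell and none rose (median -0.55), and the 21.7% lower among the 23 expressed ones is near that of all expressed genes. Among the falls were Bax, a killer protein of the mitochondrial pathway, at -2.58 ± 0.26 and Mdm2, the ligase that degrades p53, at -2.30 ± 0.29. Of 37 immediate early genes 4 fell: Junb, Mafk, Nfkbia and Ier2. All 4 were among the 10 expressed members, a larger share than the 18.6% of all expressed genes. The median was 0.17 over the 37 genes and -0.37 over the 10 expressed members. The other early genes had no call. Of 32 cholesterol genes 3 fell (Srebf1, Scap and Sqle) and 1 rose (Abcg1, a cholesterol exporter, 1.62 ± 0.42). Srebf1, the sterol and lipid synthesis factor, went from 238 to 340 CPM to 14.8 to 35.8 CPM (-3.48 ± 0.33).

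STAT5 target genes, which sit directly downstream of JAK2, were mixed: 4 of 36 rose (11.1%, against 1.04% of genes tested) and 8 fell (22.2%, against 6.43%), with a median of -0.11 that turned positive under several scalings (0.18 with upper quartile factors), and 2 rose without any 1 of replicates 1 and 4 of day 3 or of the day 7 libraries. For the panel genes Cish, Osm, Podxl, Gab2 and Tfrc (values given above for Tfrc), every day 3 and day 7 library lay below every vehicle library. The panel was fixed by name, and the share of all genes with that separation was not computed. Cish, a feedback inhibitor of the pathway, read 30.2, 18.9 and 12.5 CPM in the vehicle libraries, 0.274 to 0.86 CPM at day 3 and 1.12 to 1.82 CPM at day 7. The day 7 libraries lay above day 3 without a call (1.38 ± 0.44, adjusted p = 0.0607), and the call was made with RLE factors (adjusted p = 0.0347), DESeq2 (0.00846) and upper quartile factors (0.0186). Osm, oncostatin M, read 8.38 to 14.3 CPM at day 3 and 10.7 to 12.8 CPM at day 7, after 37.3 to 69.5 CPM in vehicle. Podxl, a sialomucin, read 0.802 to 1.84 CPM and 1.08 to 1.6 CPM after 32 to 52.3 CPM, and the adaptor Gab2 0.391 to 3.83 CPM and 2.81 to 5.19 CPM after 33.8 to 58.6 CPM. Socs2, Pim1, Bcl2l1, Myc and Stat5a were not called either, with log2 changes of 0.55, 0.24, 0.03, -0.21 and -0.29. Among the falls Jak3, a sister kinase, read 20.4 to 21.2 CPM at day 3 and 1.26 to 4.89 CPM at day 7 (-2.84 ± 0.35, and -3.48 without replicate 1 of day 7), and Pim2, a survival kinase, had a log2 change of -2.39. Lmna, the nuclear lamin A gene, changed by -4.55, from 372 to 569 CPM to 18.2 to 20.9 CPM. Of 63 interferon-stimulated genes 1 rose, Ifitm1 (3.31 ± 0.47), and 3 fell, Tap1, Cmpk2 and Trim25, with a median of 0.04.

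The same contrast in LSK cells, tested against that in MEP in a fit of all 32 libraries, was used to ask which changes differ between the cell types. The difference of the changes passed the test for 35 of 28378 genes (0.123%), 34 higher in MEP (0.120%) and 1 lower (0.00352%). Several megakaryocyte genes were among them. Plek changed by 0.05 ± 0.52 in LSK cells, a difference of 5.0 ± 0.76 on the log2 scale (adjusted p = 0.002669). Ctla2a gave a difference of 4.97 ± 0.64, Pf4 of 3.92 ± 0.77, Sdpr of 3.58 ± 0.63, Tuba8 of 3.46 ± 0.68, Lyz2 of 3.35 ± 0.56 and Itga2b of 3.06 ± 0.49. Plek, Ctla2a, Sdpr, Itga2b and Lyz2 kept the call in all 20 alternatives run. Pf4 and Tuba8 lost it in 7 each, Serpina3g in 10 and Fxyd5 in 12, mostly where a library was left out. Vwf and Fli1 were not called (differences 0.91 and 2.27). The 1 gene lower, named for that reason, was BC067068, an unnamed transcript (-3.11 ± 0.61).

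A second set of differences came with negative changes in LSK cells. Fabp4, Lgals3, Axl, Ccl6, C1qa, C1qb and Cd5l are genes of macrophages and fat handling. In LSK cells they had log2 changes of -5.35 (Cd5l) to -2.40 (Ccl6) in the fit of 32 libraries. With the 16 LSK libraries fitted alone none of them was called. The first 4 of them had log2 changes of 0.75 (Axl) to 2.08 (Lgals3) in MEP. Lgals3 (2.08 ± 0.58, adjusted p = 0.0234) and Ccl6 (1.85 ± 0.52, adjusted p = 0.0242) were also called higher in MEP, so both cell types entered their differences of 4.96 and 4.23. C1qa, C1qb and Cd5l were not called in MEP (0.81, 0.79 and 0.68), and their differences were 5.06, 5.33 and 6.00. The macrophage list had a median change of -2.96 in LSK cells and 0.53 in MEP. This set leaned on replicate 3 of LSK day 3: without it the difference was called for 8 genes in place of 35, and Fabp4 (adjusted p = 0.521), Axl (0.344), Ccl6 (0.103) and Lgals3 (0.0692) were not called. C1qa, C1qb and Cd5l were not examined without that library. The same 4 genes were not called with limma voom and the description number as a random block (adjusted p = 0.2192, 0.06908, 0.1136 and 0.05128). The count was 82 without replicate 3 and 54 without replicate 2 of LSK day 7, and 21 without replicate 4. Of the MEP libraries, leaving out replicate 1, 3 or 4 of day 3 gave 12, 20 and 17, and replicate 1, 2 or 3 of day 7 gave 21, 16 and 19.

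None of the 12 largest falls in MEP differed from LSK cells by this test. LSK changes for those genes ran from -0.50 (Hist1h1e) to -3.68 (Mrps34), with Fth1 at -2.76 ± 0.60 and Pfn1 at -2.52 ± 0.85, and the adjusted p of the difference ranged from 0.1014 to 0.7449. A p above the threshold does not show that the falls were equal, and for Fth1 the difference was -2.82 ± 0.86. In LSK cells the log2 change was -4.29 for Klf1 and -2.67 for Epor. Cdc20 differed by -3.38 ± 0.77 (adjusted p = 0.07769). The LSK contrast alone was unstable: 187 of 28378 genes (0.659%) passed in the fit of 32 libraries, 10 higher (0.0352%) and 177 lower (0.624%). With the 16 LSK libraries fitted alone, an alternative chosen after seeing the data, edgeR, with batch C and ruxolitinib libraries in the fit, called 2 genes (Il18bp and mt-Rnr1, with 2135 at an unadjusted p under 0.05), and with the 7 LSK tamoxifen libraries alone 289. LSK and MEP libraries partly carry the same number in their descriptions and were treated as independent.

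**Figure D5:**
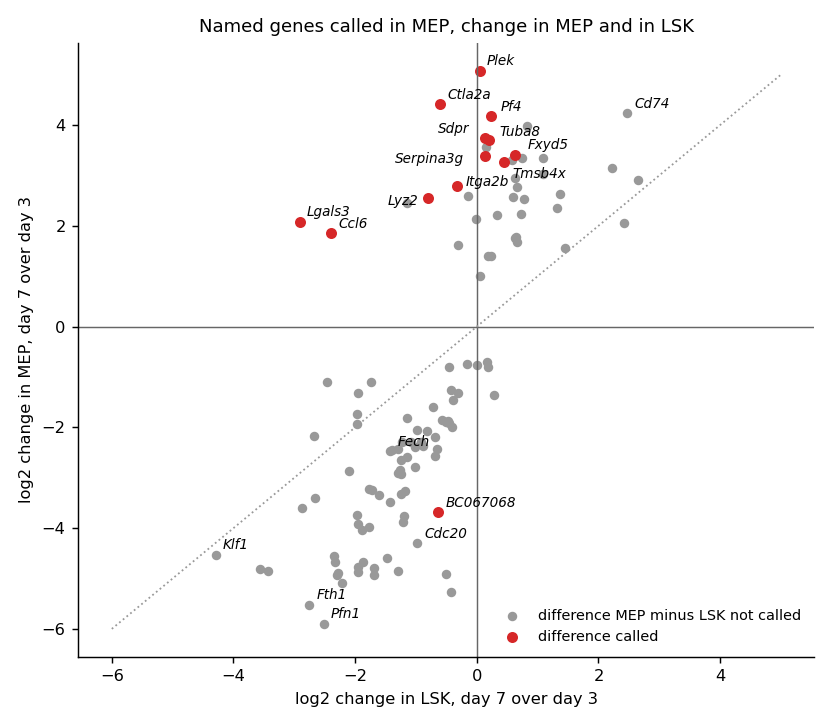
Log2 change at day 7 over day 3 in MEP (vertical axis) against LSK cells (horizontal axis) for the named genes called in MEP, without Mrps34, which had no day 7 count; the dotted line marks equal change and red points passed the test of the difference. Plek, Pf4 and Itga2b lie high on the vertical axis near 0 for LSK (0.05, 0.24 and -0.33), and the falls lie in the lower left with Fth1 at -5.52 and -2.76.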

How the data were processed

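RNA from cells sorted into TriZOL was made into paired-end libraries with the Takara kit, per the labels' protocols. The authors deposited whole-number counts for each gene symbol, made with STAR and featureCounts on mm10 per the submitters' processing notes. For versions, annotation, strand and reads with several matches the sources used here give no setting, so overlapping genes and near-identical copies may share reads. The table holds 33924 genes, 933 of them without a count. Groups came from the sample titles, and replicates differed by more than sampling noise (chi-square per degree of freedom 13.7 to 49.8). Where nothing says that libraries are separate animals, p-values measure the spread between these libraries.

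Counts were tested with edgeR 4.0.16 (R 4.3.3): TMM factors, filterByExpr with a minimum count of 10 and a mean per group over the 16 MEP libraries. The two-sided quasi-likelihood F test was used, with Benjamini-Hochberg adjustment over all genes tested at 0.05. The 16 include 3 ruxolitinib and 3 vehicle libraries of batch C, which entered the filter, the spread and the mean CPM that defines expressed genes. The main fit called 1887 genes, the 10 batch A MEP libraries 2503 and the 7 tamoxifen MEP libraries alone 2578. The difference from LSK cells was tested in the same way over 32 libraries. Log2 changes are fitted, with SE as the change divided by the root of F. The code was tested on simulated data. Alternatives were RLE and upper quartile factors, DESeq2 1.42.0, limma voom 3.58.1, no filter, expressed genes alone, a GC offset, fewer libraries, a replicate block and leaving out each library.

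The comparison and the gene lists were chosen with earlier results of these data known, and the 23 lists described were picked after their counts were seen, as were the promoter motifs and the bins by vehicle difference, GC content and length. Genes named are Jak2 and the 12 largest rises and falls. Those rises and falls were called, had a mean logCPM of 2 or more and did not overlap between groups. Unnamed transcripts and immunoglobulin segments were passed over. Also named are up to 5 members of each list by p, filled by level, and the 6 largest differences from LSK cells in each direction. The panel was Cish, Socs2, Osm, Pim1, Bcl2l1, Myc, Stat5a, Podxl, Gab2 and Tfrc. Beside that rule, Fli1, Vwf, Ppbp, Gp9, Tmsb4x, S100a9, Mpo, BC067068, C1qa, C1qb and Cd5l were added after their values were seen. Older symbols were matched through RefSeq synonyms, positions are GENCODE M21 (91.3% of symbols matched) and promoters RefSeq GRCm38.p6. Some named or marker genes are not reported here.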

Additional observations from a re-analysis of the deposited data

Results flagged for a closer look

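In 7 of 149 named genes a day 3 library lay far from the other 3, where chance gives about 1 in 20. Kit was lowest in replicate 4 at 532 CPM (others 737 to 765) and Rplp0 in the same replicate at 2380 CPM (others 3160 to 3190). Slc48a1 and Eif4ebp1 were highest in replicate 2, at 175 and 257 CPM, and Ppbp was lowest there at 0.0391 CPM. Cd37 was lowest in replicate 3 at 30.8 CPM and Abcg1 in replicate 1 at 4.3 CPM.

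In 18 named genes the change from day 3 to day 7 differed between MEP and LSK cells by the test of the difference. The differences, MEP minus LSK on the log2 scale, were 5.0 for Plek, 4.97 for Ctla2a, 3.92 for Pf4, 3.58 for Sdpr, 3.46 for Tuba8, 2.77 for Fxyd5, 3.21 for Serpina3g, 3.06 for Itga2b, 3.35 for Lyz2 and 2.79 for Tmsb4x, all of them called higher in MEP and not called in LSK cells, where Lyz2, Ctla2a and Fxyd5 had log2 changes of -0.81, -0.60 and 0.62. They were 6.43 for Fabp4, 4.96 for Lgals3, 4.65 for Axl, 4.23 for Ccl6, 5.06 for C1qa, 5.33 for C1qb and 6.00 for Cd5l, all with negative log2 changes in LSK cells. For BC067068 the difference was -3.11.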

How the results depend on the processing

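Of 149 named genes, 109 kept their direction and their side of the threshold in every one of the 17 alternatives that tested them. Only 115 of the named genes were tested with expressed genes alone, 114 with the GC offset, 146 with DESeq2 and 148 with the 7 libraries. None of the 119 called genes reversed and 19 lost the call in at least 1 alternative. Genes called higher numbered 557 with upper quartile factors, 727 with DESeq2, 683 with expressed genes alone, 1024 with the GC offset, 569 with the 7 tamoxifen libraries alone and 584 with the 10 of batch A. Mitosis genes called lower numbered 35 with the 7 libraries. Leaving out each library gave 1304 to 1906 genes called (151 to 218 higher, 1097 to 1692 lower), 127 to 186 list members (174 with all libraries), 98 to 108 named genes of the rule (111 with all libraries), 7 to 28 mitosis and 21 to 23 megakaryocyte calls, the low end mostly without replicate 2 of day 7. The difference from LSK cells was called for 57 genes with RLE factors, 258 with DESeq2, 237 with expressed genes alone, 192 with the 14 tamoxifen libraries, 23 with voom and the description number as a random block, and 8 to 82 with a library left out.

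Deviations of same-numbered libraries of the groups correlated at 0.11, 0.23 and 0.07, and those of differently numbered libraries at -0.22 to 0.17. With so few libraries these values do not settle whether replicate numbers pair the groups. With the replicate number as a block in the 7 libraries, 4536 genes were called, 1833 higher and 2703 lower, with 374 list members and 44 mitosis genes. With the description number as a block the LSK difference was called for 188 genes.

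Reversed values belong to 11 genes that were not called. With upper quartile factors, expressed genes alone and the GC offset, Cd37 read 0.13, 0.16 and 0.38, Rpsa 0.06, 0.10 and 0.10, Lpin1 0.12, 0.16 and 0.15, Myc 0.08, 0.10 and 0.15, and Stat5a 0.01, 0.04 and 0.18. Gata3 read 0.11 with upper quartile factors, and Gata1 0.01 and 0.12 with the other two. Leaving out each library in turn moved Cd37 between -0.43 and 0.06, Lpin1 between -0.37 and 0.06, Myc between -0.53 and 0.11, Jak2 between -0.11 and 0.37, Pim1 between -0.08 and 0.55, Bcl2l1 between -0.04 and 0.09 and Podxl between 0.00 and 0.43, the sign changing without replicate 2 of day 7 for Cd37, Lpin1 and Myc and without replicate 3 of day 7 for the others. The cause of these moves was not tested. Depth limits genes of a few CPM most in replicate 2 of day 7 (the shallowest library).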
